A study of Mus musculus with 12 samples.

Results

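Mouse mammary fibroblasts treated with doxorubicin were compared with vehicle-treated fibroblasts of the same day, across all genes and with weight on pathways that lie outside the usual senescence lists. The comparison used the 3 doxorubicin and 3 vehicle libraries of 12 in the series, and 13280 of 55487 genes in the table reached the level needed for a test. The cells were a primary line grown from mammary fat pad tissue of 1 healthy B6 animal, so every library stems from 1 line. The doxorubicin group was exposed to 100 nM of the drug for 24 h, and its vehicle group to water. Both received fresh medium every 3 days and were lysed on day 7. Vehicle cells were also split as they grew, whereas no splitting is described for treated cells, so treatment and passaging cannot be told apart. The other 6 libraries, which enter here only for the shared estimate of spread and for a test of difference, were a hydrogen peroxide group (750 uM for 2 h, given 3 times with 48 h of recovery, lysed on day 6) and its own water vehicle.

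Doxorubicin is an anthracycline that traps topoisomerase II on DNA and leaves double-strand breaks. Fibroblasts that survive such damage can stop dividing for good, enlarge and secrete cytokines, proteases and matrix, a state called senescence. The genes most often read in this state belong to the cell cycle, the p53 response, the interferon response, antigen presentation, secreted inflammatory factors, matrix and lysosomes. A fibroblast also makes guidance cues, receptors for hormones and vasoactive peptides, proteoglycan sugars and adhesion proteins, and it runs the metabolic and gene expression machinery that growth requires. These are the systems described here.

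Values are CPM, the reads of a gene per 1000000 reads assigned to genes in a library. Estimated depth was 21.5 to 37.6 M (1000000) reads with doxorubicin and 19.5 to 21.9 M reads with vehicle, so a floor of 3 reads was 0.0798 to 0.140 and 0.137 to 0.154 CPM, a limit that covers counting error only. Libraries of a group correlated across genes at r = 0.973 to 0.991 with doxorubicin and 0.986 to 0.996 with vehicle. Doxorubicin replicate 1 and vehicle replicate 3 stood apart from the other libraries of their groups on the second principal component, which held 11.5% of the variance against 78.9% on the first. Fibroblast markers summed to 13580 to 17640 CPM with doxorubicin and 10510 to 11050 with vehicle. Of 12 epithelial markers 11 were under 1 CPM in all 6 libraries, as were 8 of 10 endothelial and 8 of 12 leukocyte markers. The remaining epithelial marker, the keratin gene Krt19, was at 67.5, 79.9 and 77.2 CPM with doxorubicin and 184, 181 and 121 with vehicle. Its log2 fold change was -1.08. Adipocyte markers summed to 1427 to 1510 CPM with doxorubicin and 2297 to 2495 with vehicle, with Lep, the gene of the fat hormone leptin, listed at 0. Most of each sum was Lpl, at 1452, 1394 and 1369 CPM with doxorubicin and 2256, 2172 and 2384 with vehicle. In cultures, fewer cells of a type and less RNA per cell cannot be told apart.

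The response was broad. At an adjusted p below 0.05 (limma on log2(CPM + 1), Benjamini-Hochberg), 6627 genes were called, which is 49.9% of those tested, with 2937 (22.1%) higher and 3690 (27.8%) lower after doxorubicin. The balance turned with size. Changes of at least 1 log2 unit were more often upward, with 1185 genes higher (8.92%) and 529 lower (3.98%). In 7930 genes (59.7%) every doxorubicin library lay on the same side of every vehicle library, the background for each statement that groups did not overlap. The median log2 fold change over all tested genes was -0.03, and 90% of the genes lay between -0.92 (the 5th percentile) and 1.43 (the 95th). The usual senescence lists matched 1156 tested genes (8.70%). They left 859 of the 1185 larger increases (72.5%) and 348 of the 529 larger decreases (65.8%) without a match, counts that are approximate because some renamed histone and replication genes escaped the matching. With doxorubicin replicate 1 and vehicle replicate 3 both left out, 1361 genes were higher and 565 lower by at least 1 log2 unit.

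**Figure D1:**
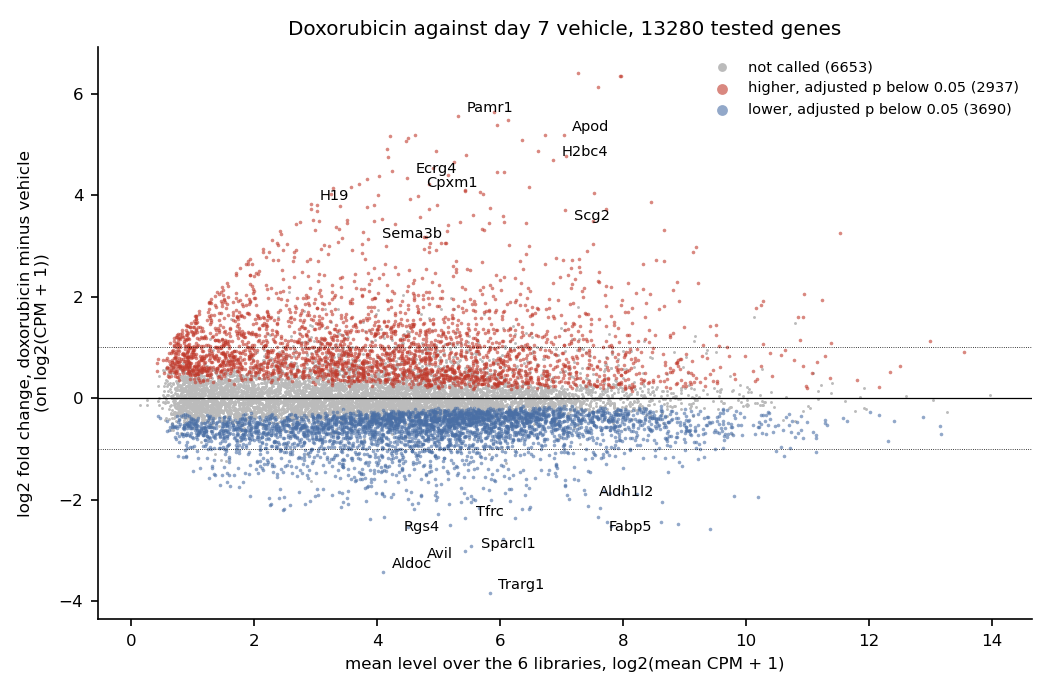
Each point is 1 of the 13280 tested genes, with the mean level over the 6 libraries, log2(mean CPM + 1), on the x axis and the log2 fold change of doxorubicin over vehicle, on log2(CPM + 1), on the y axis. The 2937 genes called higher reach further from 0 than the 3690 called lower, and Pamr1, Apod, Trarg1 and Aldoc lie at the edges.

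The largest increases outside the usual lists were led by secreted proteins. Pamr1, which encodes a secreted protein with a protease-like domain (ENSMUSG00000027188, chromosome 2, 102550012 to 102643041, plus strand, mm10), was at 84.4, 71.4 and 76.3 CPM with doxorubicin and at 0.444, 0.593 and 0.975 CPM with vehicle. The groups were far apart, and the gene rose by 5.56 ± 0.15 log2 units (SE, adjusted p = 7.81e-10). Apod, which encodes the lipid carrier apolipoprotein D (ENSMUSG00000022548, chromosome 16, 31296192 to 31314808, minus strand), was at 253, 248 and 263 CPM against 6.91, 5.61 and 5.80. It rose by 5.18 ± 0.09 log2 units (adjusted p = 1.02e-10). Scg2, which encodes the secretory granule protein secretogranin II, was at 258, 241 and 242 CPM against 18.2, 16.5 and 19.03 CPM, a rise of 3.71 ± 0.12 log2 units (adjusted p = 1.59e-09). In each of these genes the doxorubicin libraries lay close together and well above every vehicle library. Only genes without overlap between the groups could be named among the largest changes.

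Further members of this set reached the same range. Ecrg4, the source of a secreted peptide, was at 44.4, 39.9 and 41.3 CPM against 1.38, 1.504 and 0.564 CPM. H19, a maternally expressed long non-coding RNA, was at 10.3, 15.3 and 13.9 CPM with doxorubicin, and at 0.182 CPM in vehicle replicate 2 while the other vehicle libraries had none. Lrrc15, a membrane protein of activated fibroblasts, rose by 3.53 log2 units, and Shpk, a kinase of the sugar sedoheptulose, by 3.81.

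Some large increases were uneven within the doxorubicin group. H2bc4, a histone H2B gene, was at 29.4, 426 and 226 CPM with doxorubicin against 5.42, 6.72 and 2.41 CPM with vehicle. The groups did not overlap, as the naming rule required, while replicate 1 lay far below the others. The rise was 4.70 ± 0.84 log2 units (adjusted p = 0.00077). H4c8, a histone H4 gene, was at 6.15, 16.2 and 17.9 CPM against 0.106, 0.413 and 0. Sema3b, a secreted semaphorin, was at 14.02, 38.9 and 29.7 CPM against 1.82, 2.05 and 0.513, and Cpxm1, a secreted carboxypeptidase-like protein, at 18.3, 77.4 and 46.2 against 1.63, 1.69 and 1.54. Replicate 1 was the lowest in all 4 genes. Without it the log2 fold changes of H2bc4, H4c8, Sema3b and Cpxm1 were 5.82, 3.96, 3.89 and 4.54, and all 4 genes were still called. H2bc4 and H4c8 share 30.1% and 45.8% of their 50-base windows with other gene models, which makes their values uncertain.

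The largest decreases were more even across libraries. Trarg1, which encodes a regulator of glucose transporter traffic (ENSMUSG00000046275, chromosome 11, 76679808 to 76698664, plus strand), was at 6.43, 6.51 and 6.32 CPM with doxorubicin and at 110, 99.2 and 108 CPM with vehicle. It fell by 3.84 log2 units (SE 0.10, adjusted p = 7.81e-10). Aldoc, the aldolase C isozyme of glycolysis (ENSMUSG00000017390, chromosome 11, 78322968 to 78327781, plus strand), was at 1.72, 1.92 and 2.13 CPM against 30.3, 28.7 and 32.3, and fell by 3.43 log2 units (adjusted p = 8.02e-08). Sparcl1, a secreted matricellular protein, was at 9.64, 10.3 and 9.30 CPM against 78.5, 78.0 and 85.0, and fell by 2.92 log2 units (adjusted p = 1.39e-09). No doxorubicin library reached the lowest vehicle library in any of these genes, as the rule that named them required. Trarg1 is best known from fat cells. Of the 6 adipocyte markers tested 4 fell, Pparg and Lpl among them, while Adipoq rose by 0.92 and Lipe was not called. Cidec and Retn, too low for the test, were higher in every doxorubicin library than in any vehicle library, and Plin1 overlapped. The part of fat-forming cells in the fall of Trarg1 was not tested.

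The other large decreases spanned iron uptake, lipid handling and folate chemistry. Tfrc, the transferrin receptor that brings iron into the cell, was at 13.4, 12.3 and 13.7 CPM against 65.9, 80.0 and 68.4. Fabp5, a fatty acid carrier, was at 72.6, 55.5 and 62.0 CPM against 322, 314 and 332. Aldh1l2, a mitochondrial enzyme of the folate cycle, was at 73.7, 61.2 and 55.4 CPM against 273, 263 and 304. All 3 fell by more than 2 log2 units, as did Avil, an actin-binding protein (-3.02), Rgs4, a brake on G protein signalling (-2.49), and Gchfr, the feedback regulator of GTP cyclohydrolase (-2.12).

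The test of difference from peroxide separated many of these genes, beside a background of 4461 genes (33.6%) whose effects differed. The effects do not share control libraries. Of the 12 largest increases, 9 also rose with peroxide and 9 differed between the treatments, each of them larger with doxorubicin. Of the 12 largest decreases, again 9 also fell with peroxide and 9 differed, each larger with doxorubicin. Both sets were picked by their doxorubicin effect, which enters the difference, so the choice itself favoured larger effects with doxorubicin. The background share is for genes not picked in this way. Pamr1 rose in both, by 5.56 and 5.11 log2 units, and Tfrc fell in both, by 2.36 and 2.52 log2 units, with no difference passing the test. Aldoc, Sparcl1 and Gchfr had log2 fold changes of 0.38, 0.36 and 0.33 with peroxide, and the differences were called (adjusted p = 8.73e-06, 4.15e-07 and 1.70e-05). The treatments differed in day and schedule as well as in agent.

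**Figure D2:**
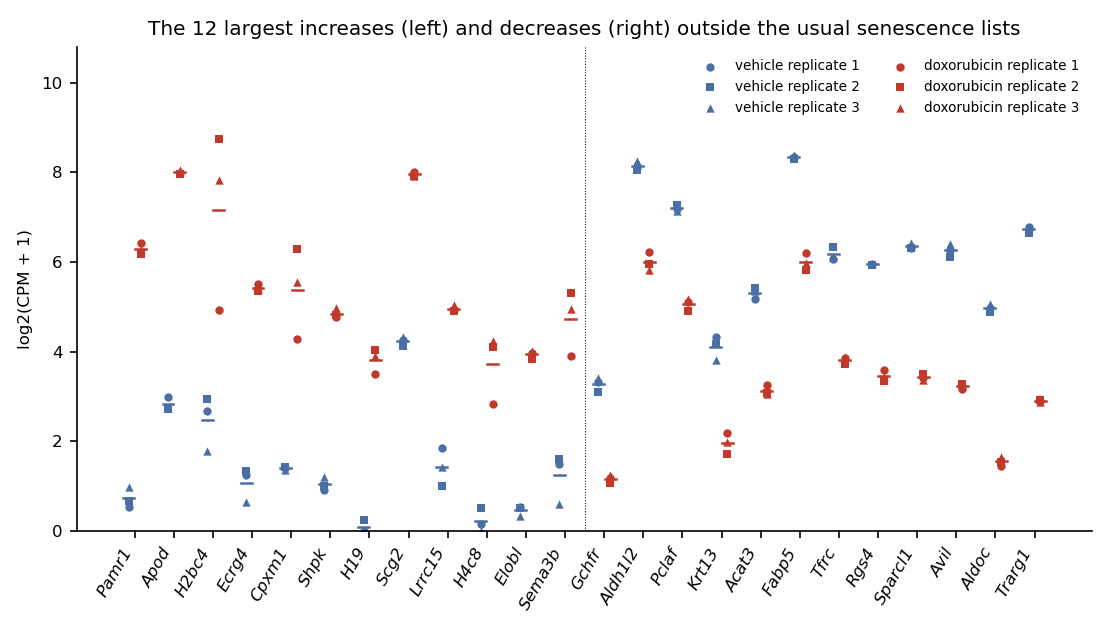
Levels of the 12 largest increases (left of the dotted line) and 12 largest decreases (right) in each library, as log2(CPM + 1) on the y axis, with vehicle in blue, doxorubicin in red, a symbol for each replicate and a bar at the group mean. Doxorubicin replicate 1 is the lowest red point of H2bc4, Cpxm1, H4c8 and Sema3b, while the decreases show tight groups.

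Promoter sequence is shown for leading genes that hold a motif of the cell cycle or of stress-responsive transcription within 250 bases before the RefSeq start. The sequences are from RefSeq on GRCm38.p6, and capitals mark the match. The CHR element, TTTGAA (searched on both strands), is known from promoters of cell-cycle genes. Of all 32851 promoters, taken from 250 bases before to 50 after the start, 17.9% hold it. The AP-1 site, TGANTCA (both strands), is bound by Jun and Fos proteins and occurs in 7.81% of promoters. Both shares include the 50 bases after the start, which were not searched for the genes shown. The first pair below belongs to decreases and the second to increases. Sbsn, with a log2 fold change of 3.265 and an AP-1 match, ranks between Lrrc15 and Sphk1 and is not shown.
Aldoc, chr11:78323965-78324030, plus strand: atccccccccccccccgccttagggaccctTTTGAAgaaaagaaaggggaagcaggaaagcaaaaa
Avil, chr10:127000598-127000663, plus strand: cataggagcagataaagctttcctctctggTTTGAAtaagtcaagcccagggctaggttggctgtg
Lrrc15, chr16:30283271-30283337, minus strand: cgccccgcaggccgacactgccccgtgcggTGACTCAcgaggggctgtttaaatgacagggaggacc
Sphk1, chr11:116531757-116531823, plus strand: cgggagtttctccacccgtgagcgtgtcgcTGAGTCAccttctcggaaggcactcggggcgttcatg
The matches lie 203, 81, 53 and 50 bases upstream of the starts of Aldoc, Avil, Lrrc15 and Sphk1. A match is a description of the letters and no evidence of binding. A promoter was matched for 73.3% of tested genes, under the 80% that a comparison of motif shares between gene sets would need, so that comparison is void.

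Among abundant genes, the changes with the largest difference in CPM were moderate in fold. Ccdc80, a secreted matrix-binding protein, was at 1903, 2013 and 1960 CPM against 518, 489 and 545, and rose by 1.92 log2 units (adjusted p = 2.93e-08). Ubb, a polyubiquitin gene, was at 7737, 6856 and 6609 CPM against 4585, 4223 and 4879, a rise of 0.63. Malat1, a nuclear non-coding RNA, was at 3033, 2984 and 3531 CPM against 1441, 1900 and 2044, a rise of 0.84. In none of these genes did the groups overlap, which the rule that named them required. In the other direction, Ldha, the lactate dehydrogenase of glycolysis, was at 3902, 3494 and 3450 CPM against 6363, 6343 and 6711 and fell by 0.84 log2 units. Eef1a1, the translation factor that carries tRNA to the ribosome, fell by 0.70, and Pkm, pyruvate kinase, by 0.56. Ubb, Eef1a1 and Pkm share 48.1%, 39.4% and 25.8% of their windows with other gene models and are uncertain to that extent. Among further glycolytic enzymes, the call of Aldoa (-0.45) was lost without doxorubicin replicate 1 and vehicle replicate 3. The call of Eno1 (-0.38) was lost without vehicle replicate 3, without doxorubicin replicate 2 or 3, and with median-of-ratios scaling.

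Another 19 genes were listed at 0 in every vehicle library and at 1 CPM or more in every doxorubicin library, and 15 of them are outside the usual lists. Genes of this kind entered the test through their treated libraries, so they had to differ. Ces2e, a carboxylesterase, was at 9.18, 6.67 and 7.49 CPM. Svop, a synaptic vesicle transporter-like protein, was at 5.03, 5.69 and 5.73, and Pm20d1, a secreted enzyme that makes N-acyl amino acids, at 3.49, 2.79 and 3.57. Akr1c18, a steroid dehydrogenase, was at 2.33, 2.45 and 2.13 CPM. No gene had the opposite pattern.

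The 48 gene lists examined next are described by how many tested members were called, beside 22.1% higher and 27.8% lower over all tested genes. In 16 lists at least 2 times as many members were lower as higher, and in 14 the reverse held. Within a list, genes are not independent, and no list was tested as a set.

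**Figure D3:**
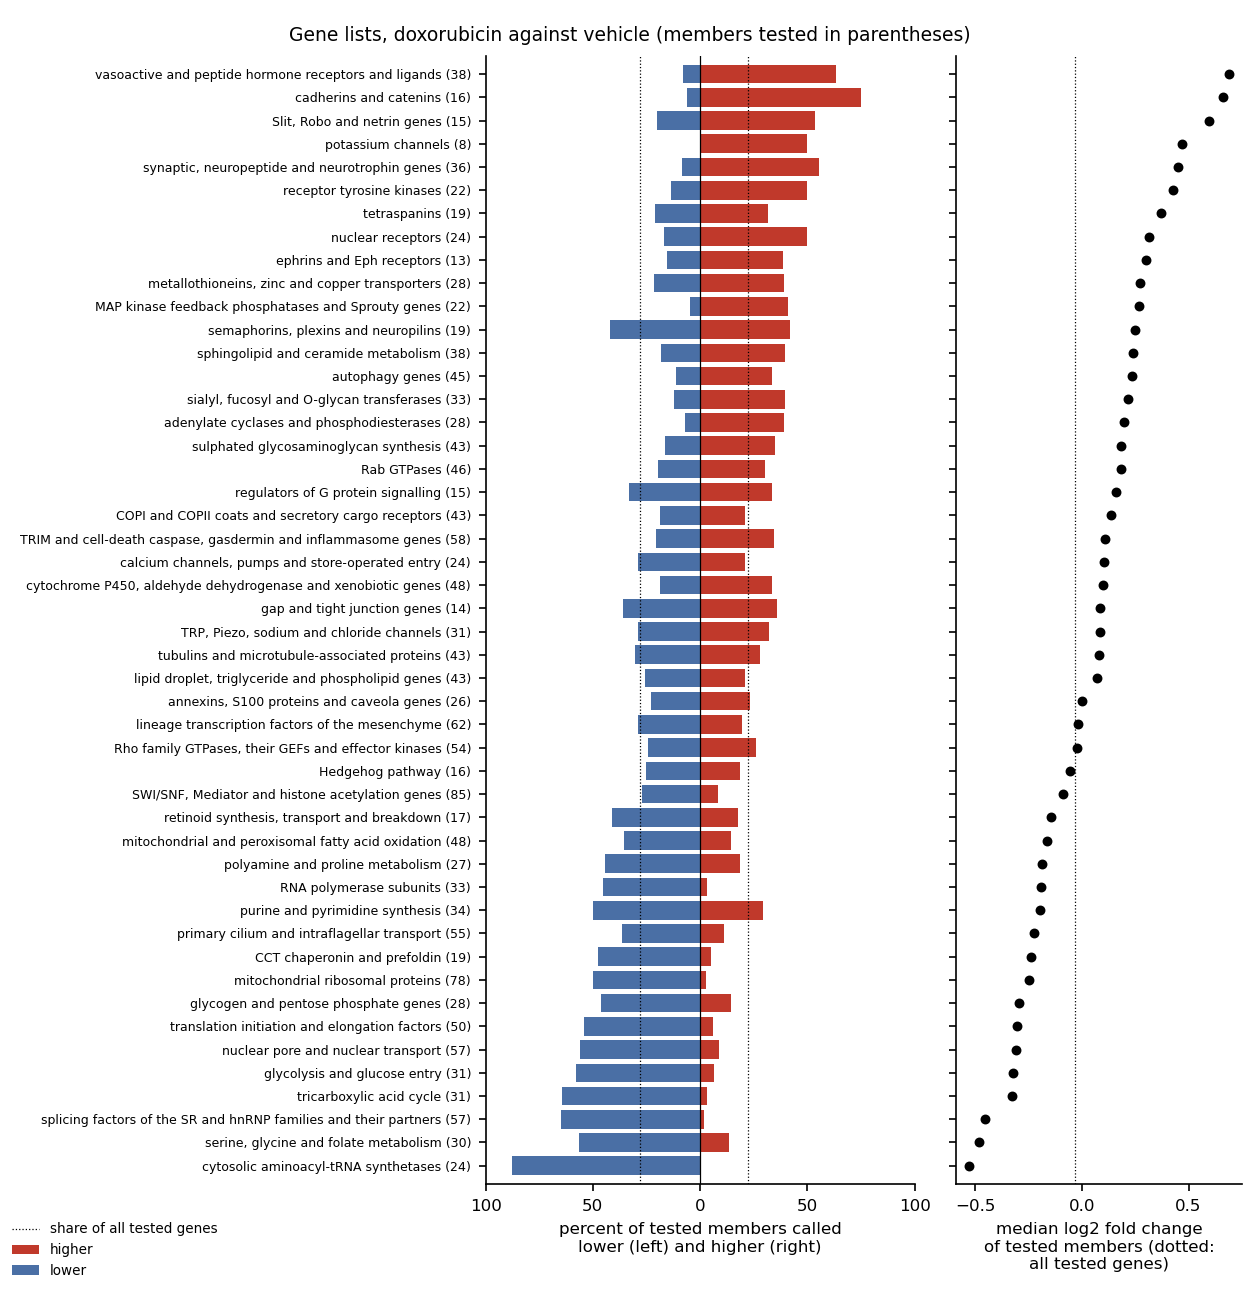
For each of the 48 lists, the left panel gives the percent of tested members called lower (blue, to the left) and higher (red, to the right), with dotted lines at the shares of all tested genes, and the right panel the median log2 fold change, with a dotted line at -0.03. Lists of vasoactive, cadherin and guidance genes lie at the top, and tRNA synthetases, serine metabolism and splicing factors at the bottom.

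Genes of RNA and protein production were lower far more often than higher. Cytosolic aminoacyl-tRNA synthetases, which charge tRNAs with amino acids, had 21 of 24 members lower and 0 higher, with a median of -0.53. Iars, the isoleucine enzyme, was at 154, 122 and 137 CPM against 264, 276 and 307, with no overlap, and fell by 1.03 log2 units (adjusted p = 2.83e-06). Lars, for leucine, fell by 0.90, Yars, for tyrosine, by 0.88, and Gars, for glycine, by 0.84. Translation initiation and elongation factors had 27 of 50 members lower and 3 higher (median -0.30). Eif3c, a subunit of the initiation factor that loads the small ribosomal subunit, was at 552, 519 and 530 CPM against 1033, 996 and 1124. Mitochondrial ribosomal proteins had 39 of 78 lower and 2 higher (median -0.25), and both of those higher, Mrpl43 and Mrpl10, lost the call when single libraries were left out. Cytosolic ribosomal protein genes held 4.47 to 5.42% of the reads with doxorubicin and 6.77 to 7.34% with vehicle.

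Splicing and nuclear transport followed the same pattern. Of 57 tested splicing factors of the SR and hnRNP families and their partners, 37 were lower and 1 higher (median -0.46). Srsf3, an SR protein, was at 206, 174 and 205 CPM against 432, 443 and 450, and fell by 1.18 log2 units (adjusted p = 2.17e-07). Hnrnpa1 was at 397, 336 and 355 CPM against 798, 847 and 844, and fell by 1.19, although 28.2% of its windows are shared with other gene models. Mbnl3, a muscleblind splicing regulator, fell by 2.03, and the single member that rose was Celf5, a CELF-family regulator, by 1.90. Nuclear pore and transport genes had 32 of 57 lower and 5 higher (median -0.31). Ran, the GTPase that gives transport its direction, was at 418, 404 and 437 CPM against 800, 810 and 739, with 14.1% of its windows shared with other gene models. The exporter Xpo1 fell by 1.04 and Cse1l, which returns importin alpha to the cytosol, by 1.002. RNA polymerase subunits had 15 of 33 lower and 1 higher, and the CCT chaperonin with prefoldin 9 of 19 lower and 1 higher.

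Central carbon metabolism was lower at several points. Glycolysis and glucose entry had 18 of 31 tested members lower and 2 higher (median -0.32). Tpi1, triose phosphate isomerase, was at 1233, 1086 and 1081 CPM against 2222, 2182 and 2291, and fell by 0.98 log2 units (adjusted p = 1.46e-05). Pgk1, phosphoglycerate kinase, fell by 0.96 and Pfkp, a phosphofructokinase, by 1.08. With peroxide the log2 fold changes of Tpi1 and Pgk1 were -0.08 and -0.07, and their differences between treatments were called (adjusted p = 0.00136 and 0.000365). Pgk1 shares 53.9% of its windows with other gene models. Genes of the tricarboxylic acid cycle had 20 of 31 lower and 1 higher (median -0.33). Acly, which turns citrate into cytosolic acetyl-CoA, was at 318, 262 and 274 CPM against 642, 683 and 705 and fell by 1.25, and the isocitrate dehydrogenases Idh1 and Idh2 fell by 0.92 and 1.13. Mdh2, malate dehydrogenase, was not called (adjusted p = 0.205), at 581, 828 and 824 CPM against 536, 573 and 102, where vehicle replicate 3 was the low value.

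Serine, glycine and folate metabolism had 17 of 30 members lower and 4 higher, with a median of -0.48. The steps from glycolysis to serine were among them, and their genes Phgdh, Psat1 and Psph also match a usual list of stress genes. Phgdh, the first enzyme, was at 294, 286 and 256 CPM against 633, 588 and 649 and fell by 1.16 log2 units (adjusted p = 0.000215), although 47.8% of its windows are shared with other gene models. Psat1, the second enzyme, was at 252, 213 and 217 CPM against 610, 618 and 649 and fell by 1.46 (adjusted p = 4.70e-08). Psph, the third, fell by 1.60. Shmt2, which passes a carbon from serine to folate in mitochondria, was at 115 to 124 CPM against 317, 292 and 287 and fell by 1.30. Cth, which makes cysteine, was at 17.4, 16.6 and 19.8 CPM against 69.8, 72.8 and 80.7 and fell by 2.00. In each of these 5 genes every doxorubicin library was below every vehicle library.

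Genes of proteoglycan sugars and sphingolipids were higher more often than lower, while other lipid lists were not, with 9 higher and 11 lower of 43 for lipid droplet, triglyceride and phospholipid genes and 7 higher and 17 lower of 48 for fatty acid oxidation. Sulphated glycosaminoglycan genes, which build heparan and chondroitin sulphate, had 15 of 43 members higher and 7 lower (median 0.19), with 10 higher by at least 1 log2 unit. Sulf2, an extracellular enzyme that removes sulphate from heparan sulphate and matches a usual list, was at 98.8, 101 and 108 CPM against 8.76, 8.24 and 8.57, and rose by 3.44 log2 units (adjusted p = 5.43e-08). Its relative Sulf1 was at 172, 138 and 141 CPM against 40.1, 42.7 and 48.6 and rose by 1.75. Among core proteins, Sdc2, syndecan 2, was at 447, 363 and 436 CPM against 188, 190 and 192 and rose by 1.12, and Gpc4, a glypican, rose by 1.64. Sphingolipid genes had 15 of 38 higher and 7 lower (median 0.24), but 9 and 6 of the 29 with a mean of at least 5 CPM. S1pr3, a receptor for sphingosine 1-phosphate, was at 340, 326 and 339 CPM against 102, 111 and 111 and rose by 1.62 (adjusted p = 2.99e-08). Sphk1, the kinase that makes this ligand, was at 2.61, 6.94 and 6.98 CPM against 0.296, 0.0456 and 0.103, and B4galt5, which makes lactosylceramide, rose by 1.45.

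**Figure D4:**
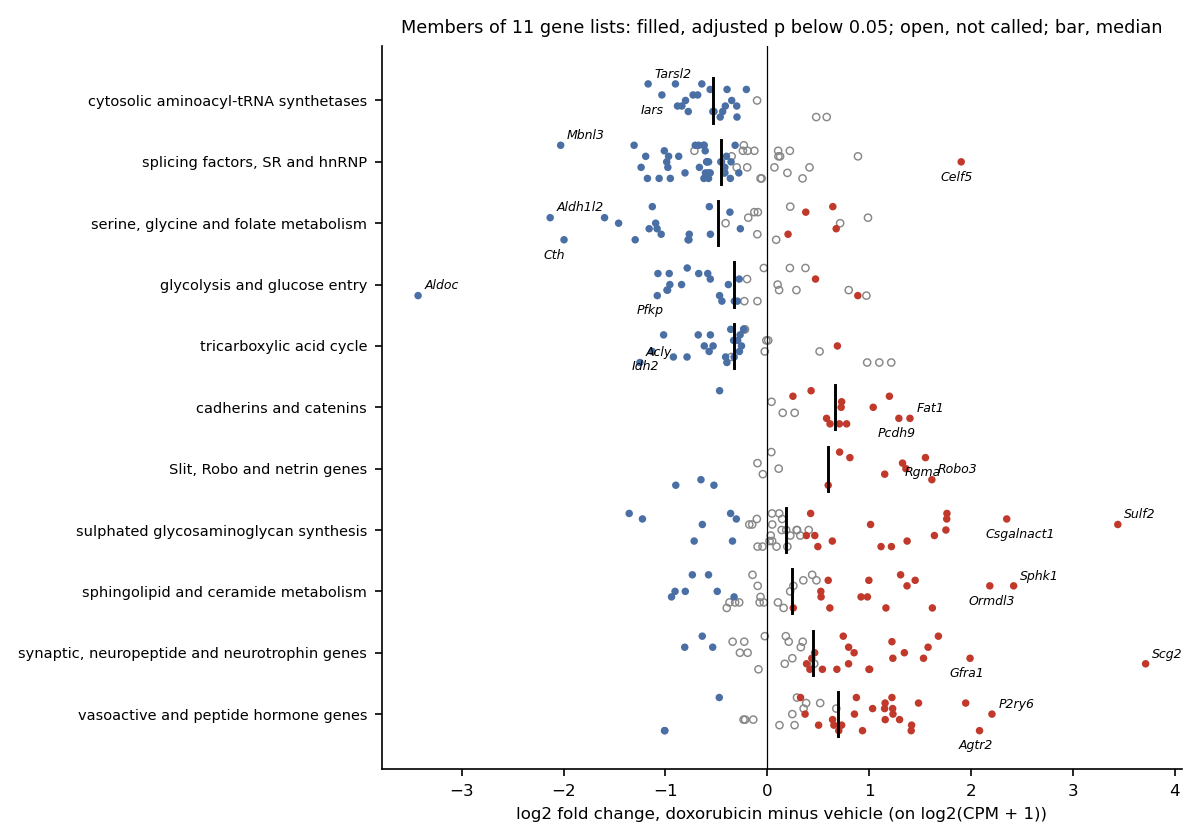
Log2 fold changes (doxorubicin minus vehicle, on log2(CPM + 1), x axis) of each tested member of 11 lists, filled where the adjusted p was below 0.05 and open where it was not, with a bar at the median. All 21 filled tRNA synthetases lie below 0, while cadherins and vasoactive genes lie mostly above it.

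Receptors and ligands of vasoactive and peptide hormones had the highest median of all lists, 0.69, with 24 of 38 tested members higher and 3 lower, of 75 in the list. A member expressed at a low level can pass the filter through the doxorubicin libraries alone, as 1 did here. Members that passed through doxorubicin and peroxide libraries together were not counted. Of the 18 members with a mean of at least 5 CPM, 12 were higher and 1 lower. Adm, which encodes the vasodilator adrenomedullin, was at 231, 230 and 222 CPM against 91.2, 89.5 and 74.7, and rose by 1.41 log2 units (adjusted p = 0.000411). Htr2a, a serotonin receptor, was at 24.7, 21.1 and 23.6 CPM against 5.87, 5.61 and 4.36. Agtr2, an angiotensin II receptor, was at 8.43, 7.53 and 6.92 CPM against 0.493, 0.775 and 2.15. None of these 3 overlapped between groups. In the endothelin system, the ligand Edn1, the receptor Ednrb and the converting enzyme Ece1 rose by 1.15, 1.22 and 1.23. Endothelial markers summed to 36.1 to 44.9 CPM with doxorubicin and 17.3 to 20.2 with vehicle, most of it Tek. Tek is an angiopoietin receptor that is also in the tyrosine kinase list. Egfl7, the other tested endothelial marker, fell by 1.10. Pecam1, which was too low for the test, was at 0.745, 0.824 and 0.964 CPM against 0.0987, 0.137 and 0.154. Skeletal muscle markers summed to 15.98 to 17.7 CPM with doxorubicin and 3.28 to 5.08 with vehicle. Their tested members, Des and Acta1, rose by 1.71 and 1.002 log2 units. Erg and Cldn5 of the endothelial markers, and Myod1, Myog, Myf5 and Pax7 of the muscle markers, were listed at 0 in all 6 libraries. The part of such cells in these counts was not tested.

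Genes of synapses, neuropeptides and neurotrophins had 20 of 36 tested members higher and 3 lower (median 0.45), of 111 in the list, and 13 and 2 of the 19 with a mean of at least 5 CPM. Gria3, a glutamate receptor subunit, was at 106, 90.0 and 102 CPM against 38.5, 36.9 and 39.6 and rose by 1.35 (adjusted p = 4.08e-07). Gfra1, the receptor of the neurotrophic factor GDNF, rose by 1.99, Cpe, which trims peptide hormones, by 1.23, and Bdnf, a neurotrophin, by 0.68. Pericyte and Schwann cell markers summed to 38.2 to 44.6 CPM with doxorubicin and 25.4 to 29.6 with vehicle, and their part in these counts was not tested.

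Guidance cues split by family. Slit, Robo and netrin genes had 8 of 15 tested members higher and 3 lower (median 0.60). Of the 11 with a mean of at least 5 CPM, 6 were higher and 2 lower. All 11 calls in the whole list held when any single library of the 6 was left out. Over all tested genes, 69.0% of the higher and 75.75% of the lower calls held. Slit2 was at 69.4, 68.6 and 64.4 CPM against 29.9, 27.4 and 32.3, and Slit3 at 93.6, 110 and 101 against 38.4, 36.6 and 41.8. These secreted ligands rose by 1.15 and 1.36 log2 units (adjusted p = 1.56e-06 and 5.63e-06). Semaphorins, plexins and neuropilins were even, with 8 higher and 8 lower of 19. Sema3c rose by 1.23 while Sema3a, a ligand of the same class, fell by 1.01. Their receptors also went both ways, with Nrp1 at 40.7, 100 and 102 CPM against 33.0, 32.6 and 22.8, and Nrp2 at a log2 fold change of -1.04.

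Among adhesion lists, cadherins stood highest, while gap and tight junction genes had 5 higher and 5 lower of 14, annexins, S100 proteins and caveola genes 6 and 6 of 26, and tetraspanins 6 and 4 of 19. Cadherins and catenins had 12 of 16 tested members higher and 1 lower (median 0.66), of 48 in the list. Of the 13 with a mean of at least 5 CPM, 9 were higher and 1 lower. Fat1, a giant cadherin, was at 123.2, 112 and 118 CPM against 41.6, 47.8 and 42.4, and rose by 1.401 log2 units (adjusted p = 8.02e-08). Cdh11, the cadherin typical of fibroblasts, rose by 0.78, and the member that fell was Ctnnb1, beta-catenin, by 0.47. Receptor tyrosine kinases had 11 of 22 higher and 3 lower (median 0.43), and 7 and 2 of the 12 with a mean of at least 5 CPM. Axl was at 364, 529 and 512 CPM against 225, 220 and 201, with doxorubicin replicate 1 the lowest of its group but above every vehicle library. Pdgfra, a receptor for platelet-derived growth factor, rose by 0.96 while its relative Pdgfrb fell by 0.26, a call that did not hold when each library was left out in turn. Feedback genes of the MAP kinase pathway had 9 of 22 higher and 1 lower, and 6 and 1 of the 15 with a mean of at least 5 CPM. Spry2 (1.63) and Spry1 (1.57) were among those higher, and Spry1 overlaps an antisense gene on 24.4% of its exons.

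Nuclear receptors had 12 of 24 tested members higher and 4 lower (median 0.32). Of the 17 with a mean of at least 5 CPM, 8 were higher and 4 lower. After correction for GC content the whole list had 9 higher and 4 lower. In the main fit, 8 of the 12 kept the call when each library was left out in turn, beside 69.0% of all genes called higher. Nr4a1, an orphan receptor induced by many stimuli, was at 31.1, 44.1 and 42.9 CPM against 9.18, 8.07 and 4.51, and rose by 2.32 log2 units (adjusted p = 2.10e-05). Vdr, the vitamin D receptor, was at 23.7, 58.7 and 51.0 CPM against 9.18, 9.85 and 8.16 and rose by 2.08, or by 2.47 without doxorubicin replicate 1. Its log2 fold change with peroxide was 0.09, a difference that was called (adjusted p = 0.00453). In the retinoid list, with 3 of 17 higher and 7 lower, Aldh1a3, a retinoic acid-producing enzyme, rose by 1.83 and Crabp1, a retinoic acid carrier, fell by 2.10. Regulators of G protein signalling had 5 higher and 5 lower of 15. Rgs16 rose by 2.70, whereas Rgs2 fell by 1.76, with a log2 fold change of 1.47 with peroxide and a called difference (adjusted p = 3.31e-06).

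Cytoskeleton, cilium and membrane traffic showed smaller or mixed changes. Primary cilium and intraflagellar transport genes had 20 of 55 lower and 6 higher (median -0.23), with 15 lower after correction for GC content. Tubulins and microtubule-associated proteins had 12 higher and 13 lower of 43. Tubb3, a neuronal-type beta-tubulin, was at 87.8, 86.4 and 83.3 CPM against 27.1, 24.4 and 24.7, while Stmn1, which destabilises microtubules, was at 75.8, 65.5 and 69.2 against 255, 275 and 256. Both were called, and Stmn1 shares 18.9% of its windows with other gene models. Autophagy genes had 15 of 45 higher and 5 lower. Beside 69.0% of all genes called higher, 7 of the 15 kept the call when each library was left out in turn. Becn1 and Wdr45b were among those that did not, at 44.2, 77.9 and 75.6 CPM against 35.5, 35.7 and 16.4 for Becn1, which also overlaps a gene on the opposite strand. Doxorubicin replicate 1 and vehicle replicate 3 were the low libraries of their groups. Rab GTPases had 14 higher and 9 lower of 46, and Rab1b, at 24.4, 182 and 120 CPM against 24.1, 19.97 and 11.5, had the same unevenness and also lost its call.

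Genes of cell death and antiviral defence were mixed as well. TRIM, caspase, gasdermin and inflammasome genes had 20 higher and 12 lower of 58. Leukocyte markers summed to 27.9 to 33.4 CPM with doxorubicin and 11.3 to 19.3 with vehicle, and the 3 that were tested rose, Lyz2 by 2.01, Cd68 by 0.77 and Csf1r by 0.58, while Ptprc, which defines leukocytes, was at most 0.0798 CPM in any library. Their part in these counts was not tested. Casp4 and Casp12, inflammatory caspases, rose by 1.31 and 1.29. The pore-forming gasdermins went both ways, with Gsdmd higher by 0.78 and Gsdme lower on the log2 scale (-0.83). Trim12c, a relative of the retroviral restriction factor Trim5, was at 40.7, 31.9 and 41.2 CPM against 6.55, 5.14 and 5.52, and shares 33.0% of its windows with other gene models.

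Transcript GC content moved with the response. With tested genes cut into 5 equal bins, from the lowest GC content to the highest, the median log2 fold change ran from -0.23 through -0.12, -0.03 and 0.03 to 0.26. Over the same bins with peroxide it stayed between -0.05 and 0.03. Doxorubicin replicates did not share the shift in the top bin, at 0.06, 0.38 and 0.26 above the vehicle mean. After each library was corrected for GC content, 3156 genes were higher and 3254 lower, and the 24 tRNA synthetases still had 20 lower and 0 higher, the 57 splicing factors 35 lower and 2 higher, and the vasoactive list 25 higher and 3 lower.

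**Figure D5:**
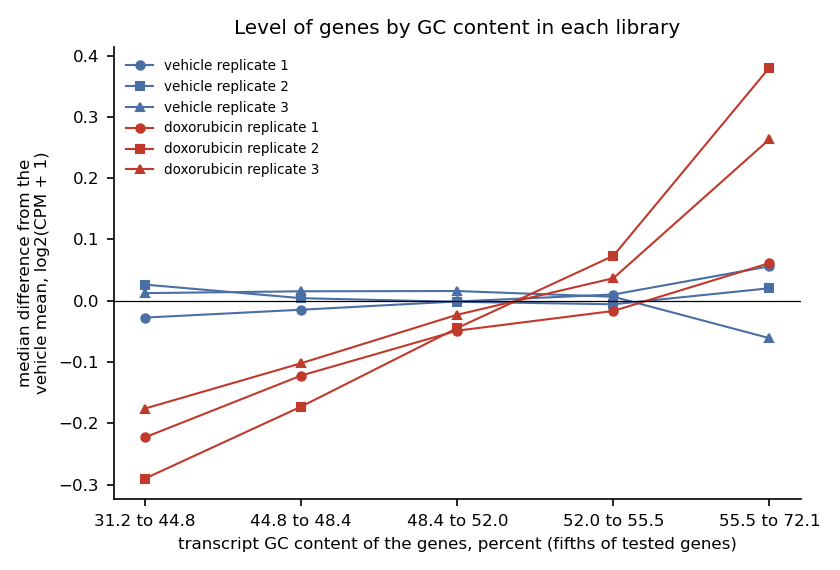
Median difference from the vehicle mean, in log2(CPM + 1), on the y axis, in 5 equal bins of tested genes by transcript GC content (percent, x axis), with 1 line for each library. The doxorubicin lines rise from left to right, and replicate 1 ends at 0.06 where replicates 2 and 3 reach 0.38 and 0.26.

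How firmly the larger increases rest on every library varied. Of the 1185 genes higher by at least 1 log2 unit, 973 (82.1%) kept the call when each of the 6 libraries was left out in turn. Here and in the counts for lists, a gene that the filter removed from such a fit counted as not kept. Doxorubicin replicate 1 was the lowest treated library in 88.7% of the 212 genes not kept. That share was 50.7% among the 973 kept and 40.3% over all tested genes. The median log2 fold change with peroxide was -0.61 for the 212 and 0.97 for the 973. Of the 529 larger decreases, 522 (98.7%) kept the call.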

How the data were processed

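RNA of 12 libraries was sequenced on an Illumina NovaSeq instrument, and the authors deposited 1 table of CPM. Per the submitters' processing notes, bcl2fastq, DRAGEN and mm10 were used, with no versions. Which counter, strand setting and annotation were used is not given in the sources used here. Low values were often fractions of a read, so the CPM come from estimated counts, and no count model was used. Repeated lines of 168 identifiers, identical in value, were kept once.

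The test kept genes that reached 1 CPM in 3 or more of the 12 libraries and ran on log2(CPM + 1), which understates fold changes of low genes, with limma 3.58.1 in R 4.3.3 (4 groups sharing 1 spread, mean-variance trend, two-sided, Benjamini-Hochberg over the 13280 genes, threshold 0.05). The fit was tested on simulated data. Tables used Python 3.11.15 with numpy 2.4.6 and pandas 2.3.3, and figures matplotlib 3.10.9. Positions, classes and GC content came from GENCODE mouse release 21 (GRCm38), which held 99.5% of the identifiers. Whether replicates were separate cultures is not stated in the labels, and p-values then cover only the spread among these libraries, which may be technical. Values per gene are in the order of replicates 1, 2 and 3.

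The comparison, its gene lists and the alternatives were chosen with earlier results of these data known. Genes were named by rule: adjusted p below 0.05, a mean of 5 CPM or more where higher, groups apart, no predicted model and no match in the usual lists, taking the 12 largest changes each way by fold and 5 each way by CPM, plus up to 3 called members per list and its most abundant member where not called. Further list members, the ratio of 2 for a list's direction, the GC bins and correction, the count of calls kept, and the promoter stretches were chosen after the values were seen. Alternatives covered the pseudocount, filter, scaling, trend, weights, voom, threshold, replicate block and leaving out libraries. Some list members are counted but not reported by name here.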

Additional observations from a re-analysis of the deposited data

Results flagged for a closer look

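The genes named as largest changes were 12 each way by fold and 5 each way by CPM. For 21 of them, the doxorubicin effect differed from the peroxide effect in the same fit (limma, interaction of treatment and experiment, adjusted p below 0.05). Genes named only as list members are not in this count, and some of them differed as well. Values are the doxorubicin minus the peroxide log2 fold change, and 33.6% of all tested genes had such a difference. The genes were picked by the size of their change with doxorubicin, which favours differences in that direction. Among increases with doxorubicin, the histone genes H2bc4 and H4c8 had differences of 4.50 and 3.45, and Sema3b, the secreted semaphorin, of 2.71. Apod differed by 1.90, Cpxm1 by 1.63, Scg2 by 1.35 and Elobl, an elongin B-like gene, by 1.21. Shpk differed by 0.961, H19 by 0.886 and Ccdc80 by 0.650. Malat1 rose with both agents and less with doxorubicin, with a difference of -0.881.

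Among decreases, Aldoc differed by -3.81, Sparcl1 by -3.28, Gchfr by -2.44 and Trarg1 by -2.33. Avil differed by -1.65, Aldh1l2 by -1.48, Rgs4 by -1.18 and Fabp5 by -1.10. Eef1a1 differed by -0.668 and Pclaf, a partner of the replication clamp, by -0.382. In H2bc4, H4c8, Sema3b and Cpxm1 doxorubicin replicate 1 lay far below the other treated libraries, and its part in the differences from peroxide was not tested.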

How the results depend on the processing

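Over 21 alternatives, the 173 called genes picked by the naming rule kept their direction wherever they were tested. Of these, 149 kept the call in every alternative that tested them. A gene that the filter of an alternative removed was not tested there, and this did not count as a lost call. The counts of calls kept when each library was left out in turn treat such a gene as not kept. The count does not cover the further list members named as examples. Leaving out each library in turn gave 2302 to 3240 genes higher and 3153 to 3589 lower, 924 to 1505 and 500 to 569 by at least 1 log2 unit, and 3201 to 4998 genes differing from peroxide. Replicate numbers were not treated as pairs in the main fit. Deviations of same-numbered libraries from their group means correlated at -0.311, 0.194 and -0.277. Deviations within a group of 3 depend on each other, so these values cannot settle whether the libraries were paired. A replicate block gave 2605 higher, 3352 lower and 3272 differing from peroxide, with 1143 higher and 529 lower by at least 1 log2 unit. Voom on estimated reads raised the decreases of at least 1 log2 unit from 529 to 824, and a pseudocount of 0.1 CPM to 779. An adjusted p below 0.01 left 1974 higher, 2676 lower and 1941 of 4461 differing from peroxide. Array weights gave 4221 higher and 4629 lower. Median-of-ratios scaling gave 3288 higher and 3170 lower, so that 50.9% of called genes were higher, against 44.3%, and turned the SWI/SNF, Mediator and histone acetylation list from 7 higher and 23 lower to 16 and 15, a net of 1. Fitting the 6 libraries alone gave 2676 higher and 3644 lower. The causes were not tested. Differences under the floor of 3 reads are not detectable at this depth.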

Other observations

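Outside the gene lists, processed pseudogenes, which are intronless copies of other genes, were mostly lower. Of 616 tested, 311 (50.5%) were lower and 26 higher, with a median log2 fold change of -0.40. Reads of a pseudogene and of its parent cannot be told apart where their sequence is shared. Long intergenic non-coding RNAs had 53 higher and 40 lower of 215.

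Genes of chromosome X had a median of -0.23, with 185 of 435 lower and 62 higher, against a median of -0.02 on the autosomes. Their median GC content was 46.4%, and after correction for GC content the median was -0.10, with 150 lower and 76 higher. With peroxide the median on chromosome X was -0.03. The share of genes called lower grew with level, from 16.8% under 5 CPM to 40.9% over 100 CPM. Gene span was nearly unrelated to the fold change across 11733 protein-coding genes (Spearman -0.04), which are not independent replicates.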
